A study of Mus musculus with 30 samples.

Results

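The genotype difference in the injury response was examined in kidney RNA of male mice, over all 18 libraries taken after surgery, of 30 libraries in the series. For each gene the injury response of a genotype is the log2 ratio of its level after ischemia-reperfusion injury (IRI) to its level after nephrectomy (NX). The interaction is the response of transgenic (TG) kidneys minus the response of wild-type (WT) kidneys, so a positive value stands for a larger rise or a smaller fall in TG. No gene was chosen by its value, and all 57133 counted genes entered, of which 19264 passed the filter on low counts and were tested.

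Wild-type kidneys gave 3 NX and 6 IRI libraries, and kidneys of the genotype labelled Gsta2-H2BeGFP gave 3 NX and 6 IRI libraries. IRI kidneys also carried the nephrectomy and were taken 4 hours after injury. The time of the NX kidneys, the age of the mice, and whether the libraries came from separate animals are not given in the sources used here, so p-values measure the spread between libraries. The series title places the Gsta2 transgene in male proximal tubule cells, and the libraries are of whole kidney, in which fewer cells of a type and less RNA per cell cannot be told apart. Kidney identity genes were present in every library, with Slc34a1 of the proximal tubule at 5178 to 8798 CPM (counts relative to the scaled total of the library), Umod of the thick ascending limb at 1441 to 4063 and Nphs1 of the podocyte at 16.1 to 37.9. Totals ran from 59574069 to 91354407 counts per library, and all libraries were used whatever their depth. The libraries that stood apart were WT NX replicate 0, in which adipocyte genes summed to 2786 CPM against 639.2 and 689.2 in the other WT NX libraries, TG NX replicate 1, highest in Gsta2, and WT IRI replicate 5, which lay apart on the second principal component. What set them apart was not tested.

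Several early events are known in a kidney whose blood supply has been stopped and restored. Immediate early genes, such as Fos, Jun and Egr1, encode transcription factors that are switched on within minutes to hours by kinase signalling and need no new protein. Damaged tubule cells switch on injury genes such as Havcr1 (kidney injury molecule 1) and Lcn2 (neutrophil gelatinase-associated lipocalin), and reactive oxygen releases NRF2, which drives genes of glutathione and NADPH supply. The Gsta2 product belongs to the alpha class of glutathione S-transferases and joins glutathione to electrophiles and also reduces lipid hydroperoxides.

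The transgene was looked at first. EGFP, the fluorescent reporter added to the counted annotation, was at 3.12, 3.23 and 4.64 CPM in the TG NX libraries and at 1.19 to 6.34, with a median of 2.19, in the TG IRI libraries. It was at 0 in all WT libraries but the one labelled WT IRI replicate 1, which held 2.59 CPM, a level that TG kidneys also had after injury. The reporter thus goes against the genotype label of that library. It is kept in the WT IRI group as labelled, and without it the edgeR test of the interaction also called 0 genes and the estimates were -1.5 for Egr1, -1.52 for Jun, 2.51 for Havcr1 and -0.82 for Gsta2. Because the WT NX group has no EGFP counts, no interaction is given for it. Gsta2 (chromosome 9, 78238300 to 78263070 on GRCm39, minus strand) was at 57.6, 79.3 and 74.9 CPM in WT NX and at 72.7, 182 and 77.3 in TG NX. After IRI it ran from 52.6 to 142 with a median of 69.8 in WT, and from 61.6 to 87.2 with a median of 79.4 in TG. The genotypes overlapped under both conditions. The interaction of Gsta2 was -0.77 ± 0.40 (log2 ± SE, 95% interval -1.60 to 0.06, adjusted p = 0.562 by edgeR), and without TG NX replicate 1, the library at 182 CPM, it was -0.21. The other alpha-class transferases gave -1.14 ± 0.74 for Gsta1, -0.01 ± 0.19 for Gsta3 and 0.27 ± 0.31 for Gsta4, none past the threshold. Without TG NX replicate 1 Gsta1 gave -0.19 and Gsta3 0.22, and without WT NX replicate 0 Gsta4 gave -0.16. Gsta1, Gsta2 and their near-identical neighbours may share reads, so their separate values are uncertain.

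Injury changed a large part of the transcriptome, and no gene's response was shown to differ between the genotypes. Averaged over both genotypes, 4358 genes (22.6%) rose and 4050 (21%) fell at an adjusted p under 0.05, and the response was called for 5952 genes (30.9%) in WT and 5661 (29.4%) in TG. For the interaction the edgeR quasi-likelihood test called 0 genes (0%), with a smallest adjusted p of 0.376. The estimate was above 0 for 9637 genes (50%). Without adjustment 1848 genes (9.59%) had p under 0.05, of which 902 (4.68%) had a larger response in TG and 946 (4.91%) a smaller one. DESeq2 called 51 genes, 16 higher and 35 lower in TG. The 35 include EGFP, for which no interaction is given because WT NX held no counts. Limma-voom called 0, and edgeR with TG NX replicate 1 left out called 1, Tmem120a (0.815 ± 0.12, adjusted p = 0.0418, against 0.58 ± 0.16 over all libraries). With WT NX replicate 0, TG NX replicate 1 and WT IRI replicate 5, left out together, a choice made after the values were seen, edgeR called 6 genes: Tmem120a and Gm9625 higher, and Atf3, Ifi207, Lrrc45 and Gadd45g lower.

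The 95% interval of the interaction lay within 2-fold either way for 10426 genes (54.1%) and for 10402 of the 13814 genes with a mean of at least 1 CPM in some group (75.3%). The median SE was 0.286 over all genes and 0.201 over these. The genotype difference after NX, with 3 libraries against 3, had a median SE of 0.164, and the difference after IRI, with 6 against 6, had 0.116. Over the 13798 genes of at least 1 CPM with counts in every group the WT and TG responses had a Pearson r of 0.804 and a Spearman rho of 0.763 across genes, which are not independent replicates. The responses share no library, and their SDs across genes were 0.853 in WT and 0.8 in TG.

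**Figure D1:**
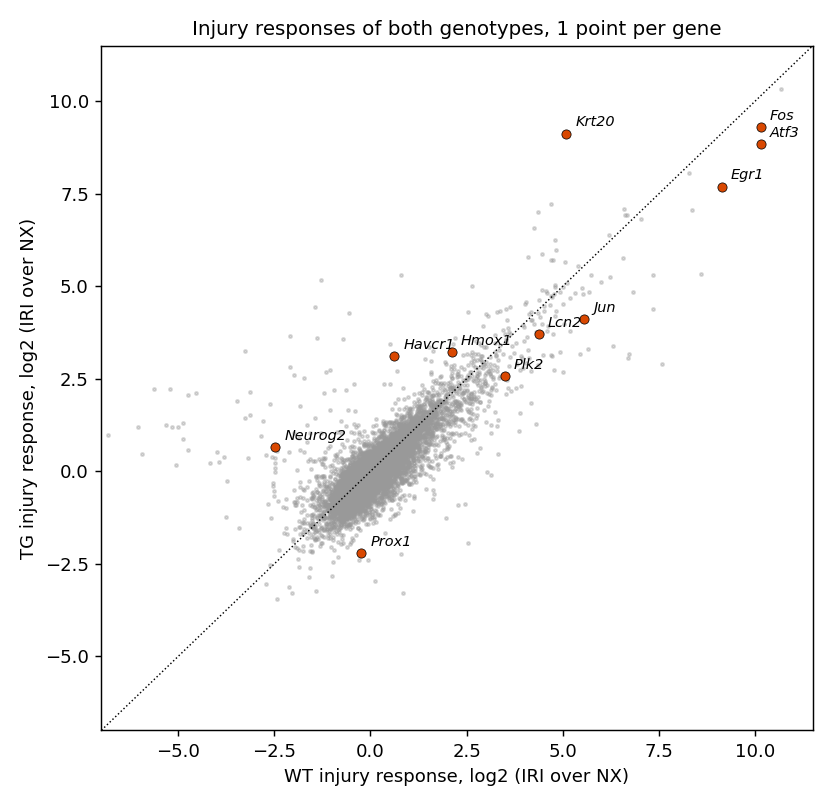
Injury response of WT (horizontal) and TG kidneys (vertical), log2 of IRI over NX, with 1 point for each of 13798 genes of at least 1 CPM and counts in every group; the dotted line marks equal responses. Egr1, Jun, Fos and Atf3 lie below the line and Havcr1 and Krt20 above it, and no gene passed the test of the interaction. The interaction of Krt20 was -0.22 without WT NX replicate 0.

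The interaction varied with the size of the average response, which is about independent of it because both genotypes have the same numbers of NX and IRI libraries. Among the 380 genes that rose at least 4-fold on average, the median response was 2.91 in WT and 2.67 in TG and the median interaction was -0.22. Of these, 235 (61.8%) had a smaller response in TG, against 47.2% of the 13798 genes, and 67 (17.6%) reached an unadjusted p under 0.05 in that direction and 19 (5%) in the other. Over the 1118 genes that rose at least 2-fold, which include these, the median was -0.09, over the 2519 that rose by less it was 0.05, and over the 6485 not called it was 0.02. The 336 genes that fell at least 2-fold had a median of -0.14, and -0.07 without TG NX replicate 1. Leaving out single libraries moved the median of the 380 genes between -0.30 (without TG NX replicate 1) and -0.10 (without TG NX replicate 2). Scored per library as the median rise of these genes above NX, the 6 WT IRI libraries stood at 2.67 to 3.06 and the 6 TG IRI libraries at 2.53 to 2.89, and they overlapped.

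Immediate early transcription factors mostly had smaller estimates in TG. All 22 listed genes rose on average, none passed the interaction test, and the median interaction of the 21 with counts in every group was -0.22, against 0.000313 over all genes tested. Without WT NX replicate 1 it was -0.45. Smaller responses in TG were estimated for 16 and larger ones for 5, with 4 and 0 at an unadjusted p under 0.05. Over all genes tested 4.91% and 4.68% reached that p with a smaller and a larger response. Among the 380 genes that rose at least 4-fold, which include members of this list, the shares were 17.6% and 5%. The median interaction of the 380 genes was also -0.22. The summed level of the list was 155 to 195 CPM in WT NX and 155 to 184 in TG NX, and after IRI it was 4481 to 6257 in WT and 2530 to 4198 in TG. The summed levels overlapped before injury and did not overlap after it.

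Egr1, which encodes a zinc finger factor, was at 1.48, 1.56 and 1.83 CPM in WT NX and 1.45, 2.78 and 2.45 in TG NX. Its IRI levels ran from 686 to 1220 with a median of 922 in WT and from 267 to 617 with a median of 465 in TG. All 6 TG libraries lay below all 6 WT libraries after injury, a separation, in either direction, seen in 151 of 19264 genes (0.784%). The interaction of Egr1 was -1.44 ± 0.34 (adjusted p = 0.376), and DESeq2 gave -1.46 with an adjusted p of 0.00897.

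Jun, an AP-1 subunit (chromosome 4, 94937271 to 94940459), was at 16.4 to 28.3 CPM over the 6 NX libraries. The IRI levels of Jun ran from 586 to 1604 with a median of 1043 in WT and from 261 to 568 with a median of 398 in TG. The lowest WT and the highest TG library nearly touched. The interaction was -1.44 ± 0.38 (95% interval -2.23 to -0.65, adjusted p = 0.376).

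Fos, the partner of Jun in AP-1, was under 0.6 CPM in every NX library. It reached 301 to 596 CPM with a median of 422 in WT IRI and 148 to 251 with a median of 198 in TG IRI, again without overlap. Its interaction of -0.85 ± 0.47 had a 95% interval of -1.83 to 0.12, and was -0.29 without TG NX replicate 2. Atf3, a stress-induced repressor and activator of the ATF family, had an interaction of -1.31 ± 0.42 and overlapping IRI libraries, 442 to 891 CPM in WT and 408 to 689 in TG. With the 3 libraries that stood apart left out together, Atf3 gave -2.27 (adjusted p = 0.0494), and without WT NX replicate 0 alone it gave -2.05. Nr4a1, an orphan nuclear receptor, gave -0.84 ± 0.40, and Klf6, a Krüppel-like factor, gave -0.49 ± 0.24.

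The AP-1 subunit genes Fosl1 and Fosb were among the largest average rises. Fosl1 was at 0 in 5 of the 6 NX libraries and at 0.0322 CPM in WT NX replicate 2. It reached 2.88 to 9.36 CPM in WT IRI and 9.18 to 13.7 in TG IRI, higher in TG with an overlap of a single pair of libraries, and no interaction is given because TG NX held no counts. Fosb ran from 298 to 610 CPM in WT IRI and from 176 to 325 in TG IRI, with overlap. Its interaction of -0.34 ± 0.60 was 0.06 without WT NX replicate 0 and -0.93 without WT NX replicate 1.

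The promoters of Jun, Atf3, Plk2 and Ugdh are shown as examples, early genes with smaller and an NRF2 target with larger estimates in TG. Each holds a match to a motif, and they do not stand for their groups, whose shares are given below. The 250 bases before the start come from RefSeq (build GRCm38.p6, older than the build of the counts), and capitals mark matches on either strand. The motifs were the cyclic AMP response element TGACGTCA, the wider form TNACNTCA, which contains it and was chosen after the sequences were read, the AP-1 element TGANTCA and the antioxidant response element TGACNNNGC. Jun lies at chr4:95052223-95052472 on the minus strand, Atf3 at chr1:191183334-191183583 on the minus strand, Plk2 at chr13:110394794-110395043 on the plus strand and Ugdh at chr5:65435843-65436092 on the minus strand.
Jun: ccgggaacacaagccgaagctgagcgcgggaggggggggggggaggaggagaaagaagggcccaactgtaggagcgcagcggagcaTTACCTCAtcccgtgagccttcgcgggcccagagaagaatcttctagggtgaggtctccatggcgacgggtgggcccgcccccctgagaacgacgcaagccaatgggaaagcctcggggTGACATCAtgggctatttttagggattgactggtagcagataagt
Atf3: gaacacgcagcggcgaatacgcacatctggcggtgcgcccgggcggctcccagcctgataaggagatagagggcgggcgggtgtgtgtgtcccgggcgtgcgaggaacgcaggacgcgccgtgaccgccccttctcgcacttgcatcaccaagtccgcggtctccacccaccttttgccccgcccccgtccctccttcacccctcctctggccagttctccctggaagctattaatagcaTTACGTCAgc
Plk2: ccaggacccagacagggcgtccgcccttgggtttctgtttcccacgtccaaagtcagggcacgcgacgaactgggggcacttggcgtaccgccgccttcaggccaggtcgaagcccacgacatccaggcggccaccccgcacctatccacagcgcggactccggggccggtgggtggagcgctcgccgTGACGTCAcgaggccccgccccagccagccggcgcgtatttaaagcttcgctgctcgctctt
Ugdh: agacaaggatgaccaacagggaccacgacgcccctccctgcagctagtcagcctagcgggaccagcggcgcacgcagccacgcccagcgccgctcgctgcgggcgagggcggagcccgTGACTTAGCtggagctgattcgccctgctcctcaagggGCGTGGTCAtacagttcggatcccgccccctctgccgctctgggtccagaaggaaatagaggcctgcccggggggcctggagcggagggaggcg

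The wider element matched 2 times before Jun, 1 time before Atf3 and, in its full form, 1 time before Plk2, and the antioxidant element matched 2 times before Ugdh. Of 12727 tested genes with a promoter in the table, 11.6% held the wider element, 2.51% its full form, 4.9% the AP-1 element and 11.9% the antioxidant element. Among the immediate early factors 4 of 17 (23.5%) held the wider element, 0 the full form and 0 the AP-1 element. The wider form was chosen after the printed sequences, which include early genes, were read. Its share among these factors therefore cannot be weighed against that of all tested genes. Among the NRF2 targets 6 of 20 (30%) held the antioxidant element, 3 (15%) the AP-1 element and 1 (5%) the wider element. The antioxidant element was also found before 4 of 17 (23.5%) immediate early factors. The wider element was also found before 3 of 14 (21.4%) genes of the NF-kB list. A match is a run of letters and says nothing on whether a factor was bound.

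**Figure D2:**
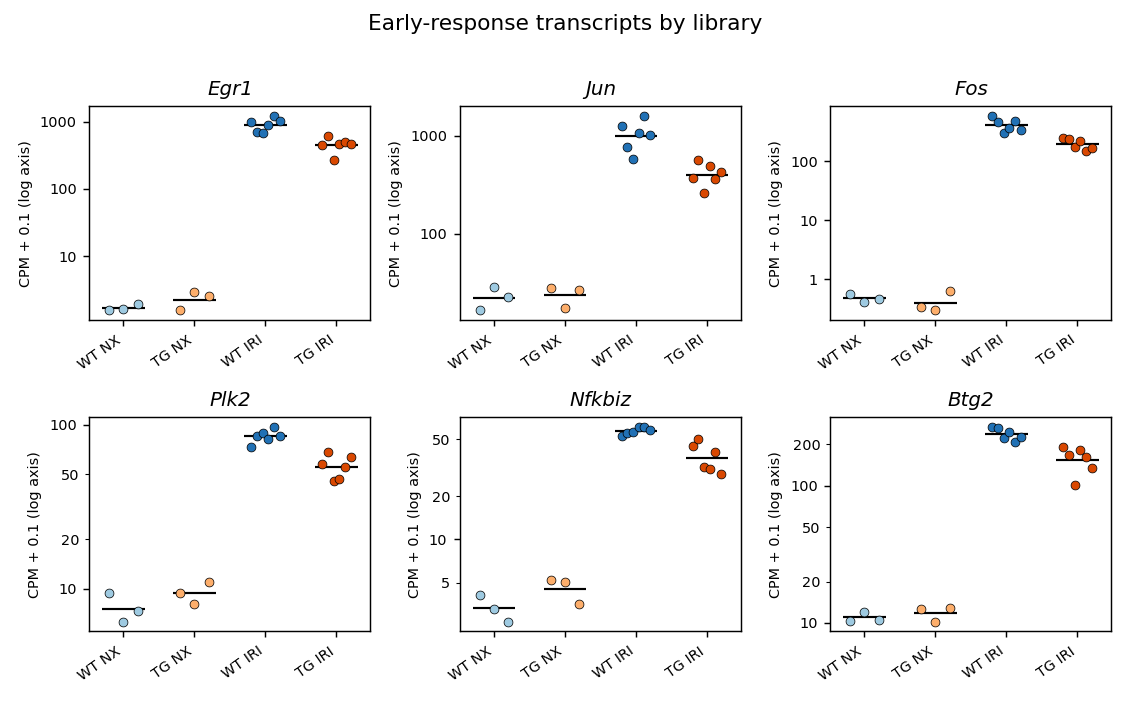
CPM plus 0.1 on a log axis for Egr1, Jun, Fos, Plk2, Nfkbiz and Btg2, with 1 point per library and a line at the geometric mean of each group (3 WT NX, 3 TG NX, 6 WT IRI, 6 TG IRI). The NX points overlap for each gene, and the TG IRI points lie below the WT IRI points for each.

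Genes of feedback and stress signalling gave smaller estimates in TG for some members. Plk2, a polo-like kinase induced early after stimulation, was at 9.3, 6.2 and 7.19 CPM in WT NX and at 9.39, 7.95 and 10.9 in TG NX. After IRI it ran from 73 to 97 CPM with a median of 85.5 in WT and from 45.1 to 68.4 with a median of 56.4 in TG. The IRI libraries did not overlap and the NX libraries did, and the interaction was -0.92 ± 0.20 (adjusted p = 0.376, DESeq2 0.0116). Nfkbiz, a nuclear modulator of NF-kB, stood at 52.1 to 60.7 in WT IRI and 28.7 to 49.9 in TG IRI, and its interaction was -1.07 ± 0.24. Btg2, an antiproliferative p53 target, stood at 209 to 268 and 102 to 190, with an interaction of -0.73 ± 0.21.

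Across the list of NF-kB subunits and feedback inhibitors the median was -0.13, with 12 of 17 estimates smaller in TG. Tnfaip3, which encodes the deubiquitinase A20, gave -0.82 ± 0.27. Without TG NX replicate 2 the list's median was 0.00161. MAP kinase phosphatases and feedback inhibitors did not share the early genes' direction: 10 of 14 estimates were larger in TG and the median was 0.08, which was -0.01 without TG NX replicate 0. Dusp5, a nuclear phosphatase of ERK, reached 36.6 to 103 CPM in WT IRI and 82.6 to 98.5 in TG IRI (interaction 1.03 ± 0.39). The p53 targets had a median of 0.02, with 11 of 20 larger in TG, and ran from -0.13 without TG NX replicate 1 to 0.13 without TG NX replicate 2.

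Heat shock chaperones gave 18 of 19 estimates below 0 with a median of -0.26, and 0 reached an unadjusted p under 0.05 in either direction. Hspa1a, the inducible HSP70, ran from 998.8 to 2117 CPM in WT IRI and from 326 to 922 in TG IRI without overlap. WT NX replicate 1 held 81.6 CPM of Hspa1a against 8.73 and 10.8 in the other WT NX libraries. The interaction of -0.73 ± 0.78 was -2.53 without that library and -0.06 without TG NX replicate 0. Genes of the unfolded protein response and the integrated stress response had a median of 0.09, with 11 of 18 larger in TG, and -0.11 without WT NX replicate 1. Unadjusted p under 0.05 was reached by 2 members in each direction, against 4.68% (larger in TG) and 4.91% (smaller) of all genes tested. Those with smaller estimates were Ppp1r15a, which restores translation after stress, at -0.56 ± 0.18, and Ddit4, an inhibitor of mTORC1, at -1.89 ± 0.58. Ddit4 was at 67.8 CPM in TG NX replicate 2 against 16.7 and 9.02 in the other TG NX libraries, and its interaction was -0.62 without that library.

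Tubule injury markers had estimates on both sides of 0. Their median was -0.03 (-0.18 without WT NX replicate 0 and 0.03 without TG NX replicate 2), with 13 of 24 smaller in TG, and 23 of the 26 tested rose on average. Havcr1 (chromosome 11, 46625907 to 46670405) was at 1.45, 0.367 and 1.13 CPM in WT NX and at 1.18, 0.608 and 0.560 in TG NX. In WT IRI it was at 0.871 to 2.26 with a median of 1.38, and in TG IRI it was at 3.18 to 15.9 with a median of 5.71. Each TG IRI library exceeded each WT IRI library, and the NX libraries overlapped. The response was 0.62 ± 0.49 in WT and 3.12 ± 0.54 in TG, and the interaction was 2.5 ± 0.69 (95% interval 1.07 to 3.93, adjusted p = 0.376), with an adjusted p of 0.0382 by DESeq2. Without TG IRI replicate 2, the library at 15.9 CPM, it was 2.07. Lcn2 gave -0.67 ± 0.41, its NX libraries were higher in TG without overlap, and its levels were 13.9 to 36.5 CPM in WT IRI and 20.6 to 33.1 in TG IRI. Without WT IRI replicate 3, the library at 36.5 CPM, the interaction of Lcn2 was -0.42.

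Krt20, a keratin gene, had an interaction that rested on a single NX library. It ran from 14.4 to 137 CPM in WT IRI and from 88 to 175 in TG IRI, and was at 0.0644 to 0.384 CPM in 5 of the NX libraries. WT NX replicate 0 held 4.42 CPM, and the interaction was 4.04 ± 1.36 with it and -0.22 without it. Hk2, a hexokinase gene, was at 36.4 CPM in that library and at 0.128 to 0.966 in the other NX libraries, and its interaction was 4.31 ± 1.24 with it and 0.03 without it.

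NRF2 targets leaned the other way from the early genes. Of the 24 tested, 20 had a larger response in TG, 8 with an unadjusted p under 0.05 against 0 in the other direction, and the median interaction was 0.28. Over all genes tested 4.68% reached that p with a larger response in TG and 4.91% with a smaller one. The median response of the NRF2 targets was -0.11 in WT and 0.14 in TG. The summed level of the list was 8806 to 10620 CPM in WT NX and 8169 to 9177 in TG NX, and 8297 to 9428 in WT IRI and 9757 to 10500 in TG IRI. The groups overlapped after NX and did not after IRI. Over single left-out libraries the median stayed between 0.18 and 0.30.

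Ugdh makes UDP-glucuronate for glucuronidation (chromosome 5, 65570564 to 65593292). It was at 132, 138 and 131 CPM in WT NX and at 132, 101 and 113 in TG NX. After IRI it fell to 71.9 to 110 with a median of 91.7 in WT, and it was at 111 to 153 with a median of 135 in TG. The IRI libraries did not overlap, and the interaction was 0.75 ± 0.18 (adjusted p = 0.376, DESeq2 0.0382). Hmox1, heme oxygenase 1, rose in both genotypes, to 127 to 374 CPM in WT and 293 to 508 in TG (interaction 1.10 ± 0.36). Genes of the pentose phosphate pathway, which supplies NADPH, gave 0.60 ± 0.14 for Pgd, 0.61 ± 0.18 for Tkt and 0.49 ± 0.14 for G6pdx. For these 3 the NX libraries did not overlap and were higher in WT, and the IRI libraries overlapped. Without WT NX replicate 0 the estimates were 0.30 for G6pdx and 0.41 for Tkt. Non-overlapping NX libraries were seen in 2336 genes (12.1%).

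**Figure D3:**
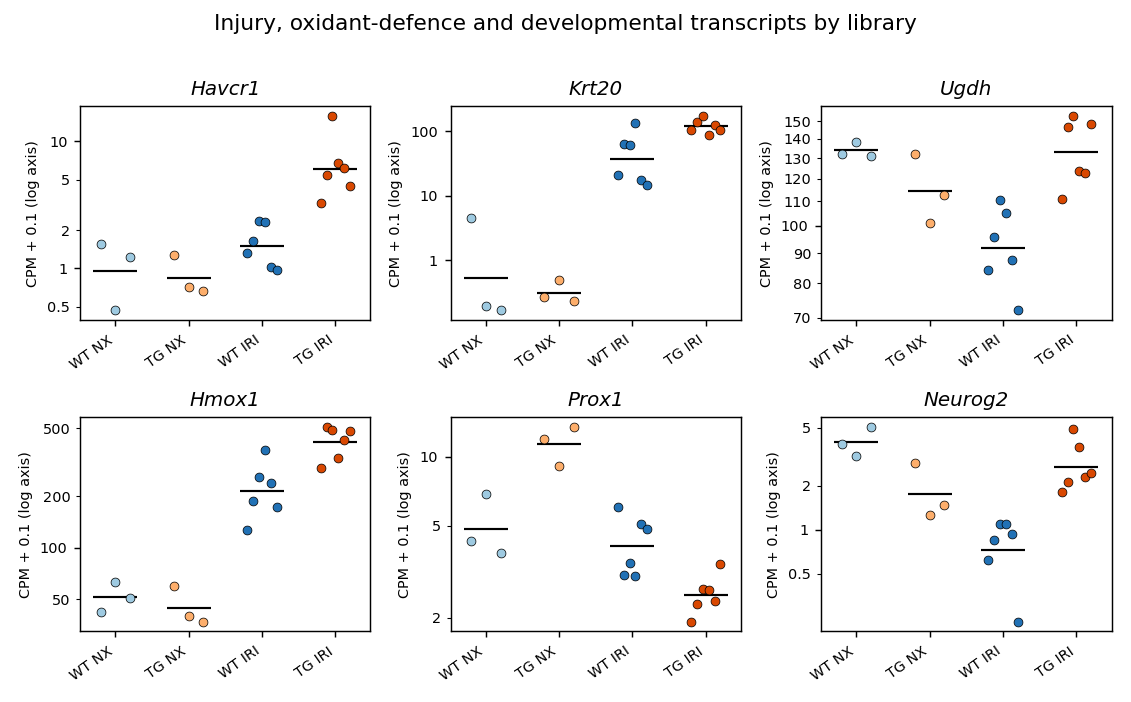
CPM plus 0.1 on a log axis for Havcr1, Krt20, Ugdh, Hmox1, Prox1 and Neurog2, with 1 point per library and a line at the geometric mean of each group. Havcr1 is higher in all TG IRI libraries, Krt20 stands at 4.42 CPM in WT NX replicate 0, and the NX points of Prox1 do not overlap.

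Glutathione synthesis, peroxidases and lipid peroxide defence gave 22 of 26 larger estimates in TG, 8 with p under 0.05 and 0 the other way, with a median of 0.25. The median genotype difference of the list was -0.11 after NX and 0.07 after IRI. Its summed levels overlapped after IRI, at 28120 to 39410 CPM in WT and 27110 to 32640 in TG. Over all genes tested the shares at that p were 4.68% larger and 4.91% smaller. Gss, glutathione synthetase, was at 185 to 249 CPM in WT IRI and 282 to 299 in TG IRI without overlap (0.39 ± 0.12), and Txn1, thioredoxin, gave 0.31 ± 0.09. The glutathione S-transferases as a family had 12 of 22 larger estimates and a median of 0.07, which was 0.22 without TG NX replicate 1 and 0.00211 without WT NX replicate 0. Gstt2, a theta-class member, gave 0.66 ± 0.18. The NRF2 and glutathione lists share some genes.

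Nephron segments differed in direction. For comparison, 4.68% of all genes tested had p under 0.05 with a larger estimate in TG and 4.91% with a smaller one. Proximal tubule genes gave 23 of 30 larger estimates in TG, with 7 and 1 at p under 0.05 and a median of 0.19, which ran from 0.10 without WT NX replicate 1 to 0.29 without WT NX replicate 0. Their median genotype difference was -0.19 after NX and 0.00071 after IRI. Slc6a19, a neutral amino acid transporter, gave 0.35 ± 0.11, and Slc27a2, a fatty acid transporter, gave 0.43 ± 0.14. Thick ascending limb genes gave 9 of 10 smaller estimates, 4 with p under 0.05, and a median of -0.53. The median genotype difference of these genes was 0.295 after NX and -0.243 after IRI. Umod, the gene of uromodulin, gave -0.70 ± 0.26, Slc12a1, the NKCC2 cotransporter, -0.63 ± 0.27, and Ptger3, a prostaglandin receptor, -1.03 ± 0.32.

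Podocyte genes gave 7 of 7 smaller estimates with a median of -0.48, among them Nphs1, the nephrin gene (-0.53 ± 0.22). Collecting duct genes had a median of -0.32 (10 of 13 smaller) and distal convoluted and connecting tubule genes -0.14 (7 of 8 smaller). WT IRI replicate 5 held the highest level of Umod, Slc12a1 and Nphs1 among the 18 libraries. Without it the medians were -0.43 for the thick ascending limb, -0.28 for the podocyte, -0.19 for the collecting duct and -0.02 for the distal segments. With the 3 libraries that stood apart left out together, the podocyte median was -0.22 and the collecting duct median 0.00249.

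Interferon-stimulated genes gave 16 of 18 smaller estimates in TG, 6 with p under 0.05 and 0 the other way, and a median of -0.61. Over all genes tested the shares at that p were 4.91% smaller and 4.68% larger. Rsad2, the antiviral enzyme viperin, was at 17.3, 15.6 and 17.8 CPM in WT NX and at 18.4, 18.4 and 28.3 in TG NX, without overlap. After IRI it ran from 16.1 to 34.3 in WT and from 11.6 to 16.3 in TG, with a small overlap. Its interaction was -1.11 ± 0.27 (adjusted p = 0.376, DESeq2 0.0382). Isg15, a ubiquitin-like modifier, gave -1.27 ± 0.53, and -1.97 without WT NX replicate 0. Irf1, an interferon regulatory factor, was at 64.9 CPM in WT IRI replicate 2 and at 12.4 to 23.1 in the other WT IRI libraries, and its interaction of -1.04 ± 0.52 was -0.49 without that library. The list's median was -0.38 without it and -0.77 without WT IRI replicate 1.

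Immune and blood transcripts, whose part in these differences was not tested, leaned low in TG with wide spread. Macrophage and dendritic cell genes had a median of -0.34 (10 of 14 smaller), and -0.13 without TG NX replicate 2, with Cd14, the lipopolysaccharide co-receptor, at -0.99 ± 0.35 and Adgre1, the F4/80 antigen, at -1.15 ± 0.39. T, B and NK cell genes had a median of -0.86, and -0.37 without TG NX replicate 2, on summed levels of 3.06 to 12.5 CPM. Neutrophil genes had a median of -0.23, which was 0.36 without WT IRI replicate 5 and -0.76 without TG IRI replicate 4, and summed levels of 33.3 to 120 CPM in WT IRI and 7.78 to 53.9 in TG IRI. Globin and red cell genes had a median of -0.67 (7 of 7 smaller), and -0.15 without TG NX replicate 0. Their summed levels were 133 to 1342 CPM in WT IRI and 46.6 to 172 in TG IRI. The genotypes were already apart after NX, at 66.0 to 140.8 CPM in WT and 32.1 to 56.5 in TG without overlap. The median genotype difference of these genes was -2.18 after NX and -2.84 after IRI. Cytokines and chemokines had a median of -0.21 (9 of 15 smaller), which was 0.15 without TG NX replicate 2. Il1b gave -2.32 ± 0.87, and -3.95 without WT NX replicate 0. Il6 and Cxcl2 had no counts in any NX library and reached 3.88 to 9.04 and 4.50 to 12.4 CPM in WT IRI and 0.974 to 7.29 and 0.640 to 8.96 in TG IRI, with overlap. Endothelial genes had a median of -0.21, and -0.09 without WT IRI replicate 5, with Sele, E-selectin, at -1.72 ± 0.66, and fibroblast and smooth muscle genes had a median of 0.01.

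Estimates of adipocyte genes rested on WT NX replicate 0, and those of female-biased genes shrank without TG NX replicate 1. All 13 adipocyte genes had larger estimates in TG, 10 with p under 0.05 (against 4.68% of all genes tested), and a median of 5.38. Adipoq, adiponectin, was at 35.7 CPM in WT NX replicate 0 and at 0 in the other WT NX libraries, and without that library the median of the list was -1.23. Scd1, a desaturase, was at 1877 CPM there against 288 and 305 (interaction 2.52 ± 0.70, and 1.04 without it), and Pdk4, a kinase that restrains glucose oxidation, at 106 against 17.3 and 29.7 (1.78 ± 0.54, and 0.66 without it). Female-biased kidney genes had a median of -1.34. Cyp4a14, a fatty acid hydroxylase, was at 1062 CPM in TG NX replicate 1 and at 18.3 and 45.7 in the other TG NX libraries, and its interaction of -4.13 ± 1.45 was -0.57 without it. Prlr, the prolactin receptor, was at 19.3 and 28.2 CPM in TG NX replicates 1 and 2 and at 6.03 to 7.55 in the other NX libraries. Its interaction was -1.34 ± 0.56, and -0.87 without TG NX replicate 2. The list's median was -0.48 without TG NX replicate 1 and -0.87 without TG NX replicate 2. Male-biased genes gave 13 of 13 larger estimates with a median of 0.37, and 0.25 without TG NX replicate 1. Cyp2e1 gave 0.61 ± 0.20 and Cyp7b1, a steroid hydroxylase, 1.27 ± 0.57.

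**Figure D4:**
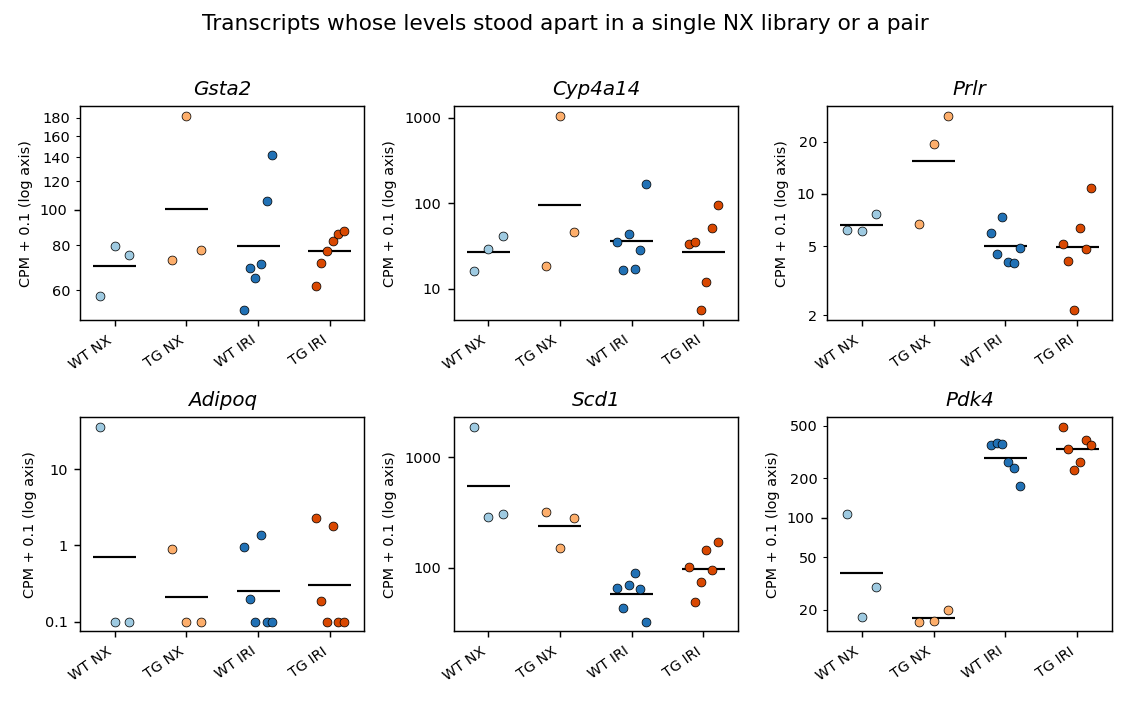
CPM plus 0.1 on a log axis for Gsta2, Cyp4a14, Prlr, Adipoq, Scd1 and Pdk4, with 1 point per library and a line at the geometric mean of each group. TG NX replicate 1 stands at 182 CPM for Gsta2 and 1062 for Cyp4a14, and WT NX replicate 0 at 1877 for Scd1.

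The remaining metabolic and regulatory lists had medians between -0.12 and 0.19. The medians were 0.19 for fatty acid oxidation and ketone metabolism (15 of 21 larger in TG), 0.17 for cholesterol synthesis (15 of 19), 0.08 for mitochondrially encoded transcripts (12 of 13) and 0.06 for hypoxia and glycolysis (11 of 20). Without WT NX replicate 0 the medians were -0.15 for the mitochondrial transcripts, -0.08 for hypoxia and glycolysis, 0.09 for fatty acid oxidation and 0.02 for the cell cycle, and that of cholesterol synthesis was 1.64e-05 without WT NX replicate 2. Insig1, a sterol-regulated brake on that pathway, gave 0.43 ± 0.17, and Ldha, lactate dehydrogenase A, 0.33 ± 0.09. Circadian clock genes had a median of -0.06 (11 of 17 smaller), with Arntl, the BMAL1 gene, at -1.53 ± 0.50. Cell cycle and DNA replication genes had a median of -0.12 (12 of 20 smaller), with Tyms, thymidylate synthase, at -0.53 ± 0.21, and -0.32 without TG NX replicate 1.

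The list medians were recomputed with each of the 18 libraries left out in turn. They changed sign for the MAP kinase phosphatases, the unfolded protein and stress response, the tubule injury markers, the cytokines, the NF-kB genes, the p53 targets, hypoxia and glycolysis, neutrophils, fibroblasts, adipocytes, the clock, the cell cycle and the mitochondrial transcripts. The signs of the other lists held over these omissions. Ranges were -0.45 to -0.18 for the immediate early factors and -0.39 to -0.07 for heat shock chaperones. They were 0.19 to 0.26 for glutathione synthesis, peroxidases and lipid peroxide defence, and 0.00211 to 0.22 for the glutathione S-transferases. Further ranges were -0.65 to -0.43 for the thick ascending limb, -0.61 to -0.28 for the podocyte and -1.15 to -0.15 for globin and red cell genes.

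**Figure D5:**
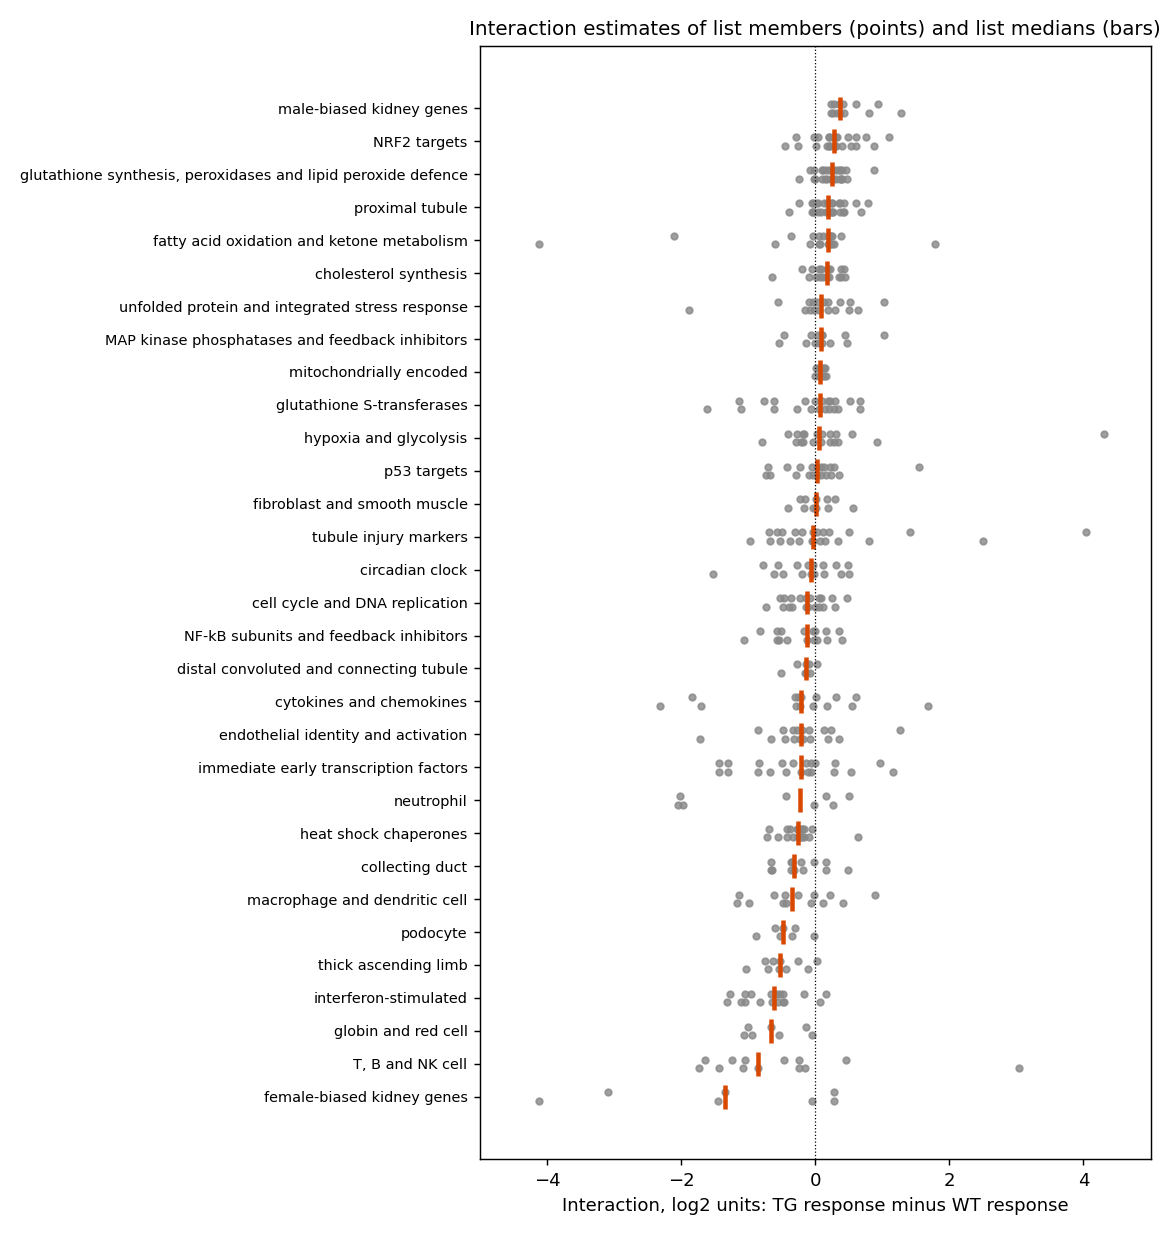
Interaction in log2 units for each member of 31 gene lists (grey points, members with counts in every group) with the list median (bar), ordered by median; the adipocyte list, with a median of 5.38, is not drawn. NRF2, glutathione, proximal tubule and male-biased genes have medians above 0, and interferon-stimulated, thick ascending limb and podocyte genes below.

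Most of the genes with the smallest p-values in each direction had NX libraries that did not overlap between the genotypes, against 12.1% of all genes tested. The genes were picked by the interaction, which contains that difference. Prox1, a homeobox factor of lymphatic endothelium that the kidney tubule also expresses (chromosome 1, 189850232 to 189902911), had the smallest p, 2.07e-05. It was at 4.22, 6.78 and 3.70 CPM in WT NX and at 11.8, 9.02 and 13.3 in TG NX. After IRI it ran from 2.93 to 5.96 with a median of 4.06 in WT and from 1.82 to 3.33 with a median of 2.41 in TG. The NX libraries did not overlap and the IRI libraries did, and the interaction was -1.98 ± 0.35 (adjusted p = 0.376, DESeq2 0.000161). Across the 1509 genes of at least 1 CPM with an unadjusted p under 0.05, the genotype difference was larger after NX than after IRI in 59.7%. The share over the 13798 was 52.6%. In the 1509 genes the median SE was 0.175 for the NX difference and 0.123 for the IRI difference. With unequal SEs, and genes picked by the interaction, the share does not show under which condition the genotypes differed more.

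The genes next in order with a smaller response in TG were Epha7 (-1.81 ± 0.35), an ephrin receptor, Angpt2 (-1.48 ± 0.31), an antagonist of the TIE2 receptor, Wnt11 (-3.25 ± 0.70), a Wnt ligand, Setbp1 (-0.75 ± 0.16), Plk2, Hist1h1d (-4.48 ± 0.999), a linker histone, and Scel (-2.23 ± 0.50), sciellin. All but Plk2 had non-overlapping NX libraries with higher levels in TG and overlapping IRI libraries. Hist1h1d was at 3.52 CPM in TG NX replicate 2 and under 0.3 in the other NX libraries, and its interaction was -2.13 without that library.

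With a larger response in TG came Neurog2, a proneural factor (3.12 ± 0.62), Stard3nl (0.70 ± 0.14), Pcolce2 (2.24 ± 0.50), an enhancer of procollagen processing, Amdhd2 (0.53 ± 0.12), an enzyme of amino sugar breakdown, Ugdh, Pgd, Get4 (0.40 ± 0.10), a factor of tail-anchored protein insertion, and Entpd5 (0.48 ± 0.12), a nucleotidase. Neurog2 was at 3.77, 3.12 and 4.96 CPM in WT NX and at 2.74, 1.15 and 1.39 in TG NX. After IRI it ran from 0.134 to 0.997 in WT and from 1.71 to 4.78 in TG. The genotypes were apart in opposite directions under the conditions, a crossing seen in 7 genes (0.0363%), among them Pcolce2 and Entpd5. Entpd5 was at 580.5, 627 and 651 CPM in WT NX and at 561, 557 and 561 in TG NX, and at 370 to 490 in WT IRI and 505 to 589 in TG IRI.

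No gene among those with the largest average changes passed the interaction test. Of the 8 largest rises, Cxcl2, Il6, Fosl1, Vgf and Acod1 lacked counts in an NX group and have no interaction value, and Fosb, Fos and Atf3 are given above. Acod1, the itaconate-producing enzyme, reached 1.71 to 7.61 CPM in WT IRI and 0.0949 to 3.20 in TG IRI, and Vgf 1.02 to 11.3 and 2.37 to 9.08. Of the 8 largest falls, Aplnr gave -0.996 ± 0.93 (-0.60 without WT IRI replicate 4), Slitrk6 -1.23 ± 0.81 (-1.85 without WT NX replicate 0), Adra2c -1.02 ± 0.65, Ano3 -0.33 ± 0.97 and AC102255.1 0.09 ± 0.72. Scd1, Cpn2 (1.88 ± 1.48) and Bche (5.23 ± 1.43) were highest in WT NX replicate 0, at 1877, 2.86 and 3.25 CPM, and without it gave 1.04, -1.53 and 2.17.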

How the data were processed

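Poly-A RNA of whole kidney was sequenced as paired reads, per the labels' protocols. The authors trimmed with fastp 0.23.2, aligned with STAR 2.7.0 to GRCm39 and counted with featureCounts 2.0.3, per the submitters' processing notes. Per the file headers, counts are over exons summed by gene, in an Ensembl annotation to which EGFP had been added, and the values the authors deposited are raw counts. The header's options could not be read, so whether counting used strand, pairs or multiply mapped reads is not given in the sources used here. Most counts were even (37.8 to 41.9% odd), so halved counts were tried. Reads of overlapping or antisense genes may not be separated. Symbols matched 51881 identifiers (90.8%).

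Members and lists were chosen with earlier results of these data known. The interaction was tested by edgeR 4.0.16 (quasi-likelihood F test, two-sided, R 4.3.3, TMM, filterByExpr, 1 coefficient per group over 18 libraries, Benjamini-Hochberg adjusted p under 0.05), and the script was tested on simulated data. CPM use TMM library sizes. Alternatives were RLE and upper-quartile factors, no filter, DESeq2 1.42.0, limma-voom 3.58.1, robust spread, a replicate block, halved counts and left-out libraries. Genes with a group without counts are given as levels only. List values are counts of estimates and medians, with no test of the list. Named by rule were the alpha-class transferases, EGFP, Havcr1, Lcn2, the 8 smallest p-values in each direction, the 8 largest average rises and falls among genes of at least 1 CPM with a symbol, and the smallest p of each list. Other genes named were chosen after their values were seen. No 2 libraries were copies (chi-square per degree of freedom 39.15 to 468.6 over 153 pairs), and the labels name no batch. Some items are not reported here.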

Additional observations from a re-analysis of the deposited data

Results flagged for a closer look

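Within the groups of 6 IRI libraries, single libraries of 21 gene and group pairs, of 184 examined, lay far from the other 5 by Dixon's ratio at its 95% critical value. Chance gives about 1 in 20 for normally distributed values. The CPM were not put on a log scale and many of the genes were chosen by their values, so that rate is only a rough guide. WT IRI replicate 5 had the highest level for Il1b (20.2 CPM, others up to 10.7), Nphs1 (37.9, up to 23), Csf3r (14.6, up to 8.85), Cyp4a14 (168, up to 44.1), Umod (4063, up to 2908), Slc12a1 (1901, up to 1388), Cd14 (28.1, up to 17.2) and Hk2 (10.9, up to 7.59), and the lowest for Ppp1r15a (90.2, others 119 or more). TG IRI replicate 4 was highest for Il1b (9.67, up to 3.43), Csf3r (9.13, up to 4.08) and Acod1 (3.2, up to 0.592).

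WT IRI replicate 1 held 2.59 CPM of EGFP, against 0 in the other WT IRI libraries. WT IRI replicate 2 was highest for Irf1 (64.9, others up to 23.1) and Gstt2 (158, up to 114). WT IRI replicate 3 was highest for Gsta3 (87.7, up to 70.3) and Vgf (11.3, up to 3.79), and WT IRI replicate 4 for Ano3 (1.11, up to 0.348). In TG IRI, replicate 2 was highest for Havcr1 (15.9, up to 6.63), replicate 1 for Atf3 (689, up to 465) and replicate 0 for Bche (0.405, up to 0.123).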

How the results depend on the processing

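No gene passed the interaction test of edgeR under RLE or upper-quartile factors, no count filter, robust spread, halved counts, a replicate block (0 called) or with WT IRI replicate 1 and WT NX replicate 0 left out; limma-voom also called 0. DESeq2 called 51. Leaving out single libraries gave 0 to 1, and leaving out WT NX replicate 0, TG NX replicate 1 and WT IRI replicate 5 together, chosen after seeing the data, gave 6. The cause was not tested. Same-numbered libraries correlated at -0.03 to 0.315 over 9 pairs, 4 above 0.1 and 4 best matched to their own number. The labels do not say whether a number marks a pair, and these correlations do not settle it. Counts of the average response stayed between 7208 and 9483 around 8408.

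Signs turned for these estimates. Over single left-out libraries Gsta3 ran from -0.141 to 0.218, Gsta4 from -0.162 to 0.432, Ano3 from -0.831 to 0.362, AC102255.1 from -0.152 to 0.475, Cpn2 from -1.53 to 2.39, Fosb from -0.928 to 0.0598, mt-Co1 from -0.0989 to 0.264, Krt20 from -0.217 to 4.59 and Adipoq from -6.46 to 13.5. With WT IRI replicate 1 and WT NX replicate 0 left out, the values were -0.226 for Gsta4, -1.59 for Cpn2, 0.0826 for Fosb, -0.118 for mt-Co1, -0.156 for Krt20, -6.65 for Adipoq and -0.0085 for Hk2. With the 3 libraries left out together they were 0.11 for Gsta2, 0.22 for Gsta3, -0.0469 for Gsta4, -2.09 for Cpn2, 0.14 for Fosb, -0.0359 for mt-Co1, 0.561 for Cyp4a14, -7.31 for Adipoq and -0.262 for Hk2. Limma-voom gave 0.0844 for Gsta3, -0.648 for Cpn2 and -0.572 for Adipoq, and the replicate block gave 0.00616 for Gsta3.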
